A study of Mus musculus with 15 samples.

Results

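A set of 10 genes was followed here, namely the tissue inhibitors of metalloproteases Timp1, Timp2 and Timp3, the membrane-anchored inhibitor Reck, the matrix metalloproteases Mmp2, Mmp3, Mmp9 and Mmp14, and the sheddases Adam10 and Adam19. They were chosen by gene symbol, as 10 of the 54343 entries measured in MC38 cells and of the 55303 measured in B16-F10 cells, and all 10 were found in both tables. Adam19, Timp1 and Timp3 had been seen to change in these same libraries, so their values are given as a description without a test. The other 7 were taken as members of the same families, and their adjusted p-values come from the fit over all genes of a line.

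Matrix metalloproteases are zinc-dependent enzymes, secreted or held at the cell surface, that cut collagens and other proteins of the extracellular matrix. ADAM proteases sit in the membrane and release the outer parts of receptors, ligands and adhesion molecules. TIMPs bind the active site of these enzymes one to one. Timp2 also takes part in the activation of pro-Mmp2 by the membrane enzyme Mmp14, and Timp3 stays bound to the matrix and inhibits several ADAMs. In tumour cells these genes are known for their part in invasion, and MMP transcripts in a tumour often come from stromal and myeloid cells as well.

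The RNA came from 15 libraries of 2 mouse lines. MC38, a colon adenocarcinoma line although its tissue label reads melanoma, was sequenced as 4 wild-type libraries and as 3 libraries of cells transduced with a retroviral pMSCV-IRES-EGFP vector carrying murine Ssbp4. The MC38 controls are labelled only as wild type, with no mention of a vector without insert, so effects of the vector and of Ssbp4 cannot be told apart. B16-F10, a melanoma line, was sequenced as 4 wild-type libraries, for which the protocol describes a control guide RNA against an intergenic site, and as 4 Ssbp4 knockout libraries from cells electroporated with Cas9 and a mixture of guides, with no clone named. The labels do not say whether replicate libraries were grown as separate cultures, and every p-value here rests on a library-to-library spread that could be technical.

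By the spacing of low values, MC38 libraries held an estimated 31.9 to 37.7 M fragments and B16-F10 libraries 31.9 to 47.9 M. Ssbp4 ran from 13.2 to 17.6 FPKM, a fragment count scaled by the authors to gene length and library depth, in wild-type MC38 and from 462 to 581 FPKM in the transduced cells. In B16-F10 it ran from 32.4 to 37.4 FPKM in wild type and from 19.0 to 24.3 FPKM in knockout. All 7 listed melanocyte genes were tested in B16-F10, with a summed level of 10982 to 14154 FPKM over the 8 libraries, whereas the intestinal marker Cdx2 was listed at 0 in every MC38 library and Epcam averaged 0.846 FPKM in wild type. The B16-F10 libraries of a group were not alike. Wild-type libraries 1 and 2 lay at -9.42 and -10.3 on the first principal component (42.8% of the variance) and libraries 3 and 4 at 17.8 and 17.8, while on the second component knockout library 4, at -1.04, was apart from the remaining knockouts at -11.1 to -8.68.

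Sequence upstream of the starts was read from RefSeq's GRCm38.p6 promoter windows, which held 8 of the 10 genes; Mmp2 and Mmp9 were not among them. The 250 bases before the start are printed for the 3 TIMPs, whose levels were higher in every knockout than in every wild-type B16-F10 library, and for the middle of the 3 annotated starts of Adam19, the gene with the largest difference in MC38. Each TIMP window led into the start of 1 annotated transcript, whereas each Adam19 window matched 0. Which start of Adam19 these cells use was not tested. Capitals mark matches, on either strand, to an E box (CAGNTG), a GC box (GGGCGG) or an AP-1 site (TGANTCA). They lie at chrX:20869916-20870165 (plus strand), chr11:118355412-118355661 (minus), chr10:86300162-86300411 (plus) and chr11:46055734-46055983 (plus), in the order shown.

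Timp1: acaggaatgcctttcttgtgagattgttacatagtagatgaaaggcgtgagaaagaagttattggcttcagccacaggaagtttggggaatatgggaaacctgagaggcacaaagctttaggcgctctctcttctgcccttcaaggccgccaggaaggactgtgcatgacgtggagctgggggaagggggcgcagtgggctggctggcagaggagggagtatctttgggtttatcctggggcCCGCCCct

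Timp2: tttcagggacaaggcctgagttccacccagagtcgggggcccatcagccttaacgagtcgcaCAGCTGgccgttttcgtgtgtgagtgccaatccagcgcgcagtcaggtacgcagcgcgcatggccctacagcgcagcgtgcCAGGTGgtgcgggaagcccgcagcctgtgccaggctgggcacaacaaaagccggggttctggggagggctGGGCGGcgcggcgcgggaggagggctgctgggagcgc

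Timp3: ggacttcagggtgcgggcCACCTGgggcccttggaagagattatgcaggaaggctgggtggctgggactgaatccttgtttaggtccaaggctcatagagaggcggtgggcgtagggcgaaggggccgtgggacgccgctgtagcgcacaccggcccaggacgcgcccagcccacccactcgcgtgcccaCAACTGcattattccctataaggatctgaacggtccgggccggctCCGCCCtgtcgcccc

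Adam19: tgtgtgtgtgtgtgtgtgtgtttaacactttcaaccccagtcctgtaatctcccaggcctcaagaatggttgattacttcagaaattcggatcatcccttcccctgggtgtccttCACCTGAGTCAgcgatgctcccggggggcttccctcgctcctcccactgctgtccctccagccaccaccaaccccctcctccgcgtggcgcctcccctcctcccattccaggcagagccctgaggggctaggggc

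Each TIMP stretch held 1 GC box, a match present in 32.7% of the 32851 windows cut to the same length. Reck, Mmp14 and Adam10 held 2, 2 and 3 GC boxes, so the match is not particular to the TIMPs. The Timp1, Timp2 and Timp3 windows were 54.4, 68.0 and 65.6% G or C, where the median of all windows was 52.4%. Timp2 and Timp3 held 2 E boxes each and Timp1 held 0, where 44.8% of windows have at least 1. The AP-1 letters were found in 6.75% of windows and, among these genes, upstream of Mmp3, 46 to 40 bases before its start, and of Adam19, 131 to 125 bases before its middle start, where they overlap an E box. The other starts of Adam19 held 2 and 5 E boxes and 0 GC or AP-1 matches. A match describes the letters only.

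At rest the lines carried different sets of these transcripts. In wild-type MC38 Timp2 was the most abundant, at 272 ± 4.25 FPKM (SD, n = 4), followed by Mmp14 at 86.3 ± 2.93, Timp1 at 71.2 ± 2.81, Adam10 at 24.1 ± 1.55, Mmp2 at 10.2 ± 0.605 and Mmp9 at 8.54 ± 0.297 FPKM. Below these stood Reck at 1.99 ± 0.174 and Adam19 at 1.84 ± 0.213 FPKM, whose libraries overlapped, then Mmp3 at 1.19 ± 0.107 and Timp3 at 0.221 ± 0.0477 FPKM. In wild-type B16-F10 Mmp14, at 85.2 ± 5.64 FPKM, and Timp2, at 75.2 ± 8.55 FPKM, overlapped at the top. Adam10 followed at 31.5 ± 2.40, Timp1 at 7.88 ± 1.68, Timp3 at 4.24 ± 0.491 and Reck at 2.99 ± 0.144 FPKM, and Mmp2, at 1.40 ± 0.233, overlapped Adam19, at 1.11 ± 0.0923 FPKM. Mmp3 and Mmp9 were at or near 0 in B16-F10: Mmp9 did not exceed 0.074 FPKM and was listed at 0 in 2 of 4 wild-type and 2 of 4 knockout libraries. The tables were normalised separately, so levels are set side by side across lines without a test.

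**Figure D1:**
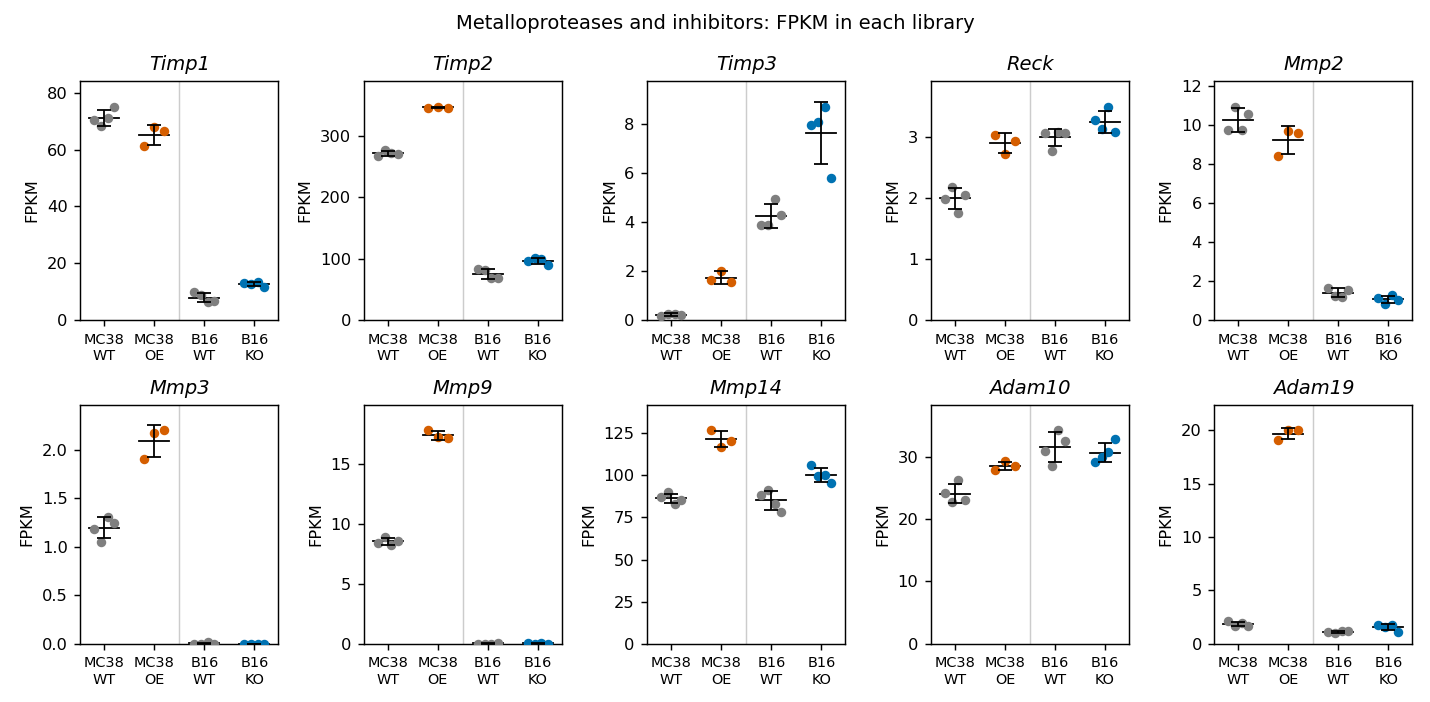
FPKM of each of the 10 genes (vertical axes, each from 0) in every library of the 4 groups; points are libraries, and bars show the mean and SD (n = 4, 3, 4 and 4 from left to right). Adam19 stood at 19.1 to 20.003 FPKM in the overexpressing MC38 libraries and at 1.66 to 2.11 FPKM in wild type, while Mmp3 and Mmp9 lay near 0 in B16-F10.

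The first comparison set MC38 cells overexpressing Ssbp4 against wild-type MC38. Adam19, Timp3, Mmp9, Mmp3, Mmp14, Reck, Timp2 and Adam10 were all higher in the overexpressing cells, and Timp1 and Mmp2 were slightly lower. For each of the 10 genes the groups did not overlap. Leaving out Adam19, Timp1 and Timp3, the other 7 genes all had a mean of at least 1 FPKM and were fitted, and 6 of them passed an adjusted p of 0.05, all 6 higher, where 47.5% of all genes passed in this line (23.9% higher and 23.6% lower). Among all tested genes the groups did not overlap for 50.6% (25.5% higher and 25.1% lower). Each of the other 7 genes was without overlap, Mmp2 lower and the rest higher. As the genes were put forward with this comparison's results known, nothing is read from these counts. The median log2 fold change of the 9 fitted of the 10 genes, which include the chosen Adam19 and Timp1, was 0.38 and that of all tested genes -0.01. The other 7 ran from -0.14 (Mmp2) to 0.95 (Mmp9), with Reck in the middle at 0.38.

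Timp2, the most abundant inhibitor, measured 267, 277, 272 and 270 FPKM in wild-type libraries 1 to 4 and 346, 348 and 345 FPKM in the overexpressing libraries. The overexpressing libraries lay close together and all above wild type. On the log2(FPKM + 1) scale, on which changes of low genes are understated, Timp2 rose by 0.35 (SE 0.03, limma adjusted p = 6.98e-06), a ratio of means of 1.27. These are bulk libraries, in which fewer cells of a type and less RNA per cell cannot be told apart. Cep295nl, which overlaps Timp2, stood at 1.55 to 2.12 FPKM in wild type and 1.67 to 1.83 FPKM with overexpression. Reck, a glycoprotein that restrains several MMPs at the cell surface, rose from 1.99 ± 0.174 to 2.89 ± 0.162 FPKM (SD, n = 4 and 3), or by 0.38 on the log2 scale (SE 0.07, adjusted p = 0.00179).

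Timp3 went from 0.159, 0.260, 0.258 and 0.208 FPKM in wild type to 1.64, 2.01 and 1.55 FPKM with overexpression. Every overexpressing library was several times above every wild-type library, with a ratio of means of 7.84, although the gene's mean over the 7 libraries stayed under 1 FPKM and it was not fitted. Timp3 lies within the span of Syn3 in the RefSeq annotation, and Syn3 itself was listed at 0.0072 to 0.0206 FPKM in wild type and 0.186 to 0.441 FPKM in the overexpressing libraries. The libraries were stranded, but whether the counting used strand is not given in the sources used here, so reads of the overlapping genes may be shared.

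Timp1, the soluble inhibitor that binds pro-Mmp9, went the other way. Its wild-type libraries read 70.3, 68.5, 71.0 and 75.1 FPKM and its overexpressing libraries 61.1, 67.9 and 66.4 FPKM. The groups were separated by a narrow gap, between 67.9 and 68.5 FPKM, and the ratio of means was 0.915. The log2 fold change of -0.13 (SE 0.05) moved to -0.08 without overexpressing library 1, the lowest, and to -0.23 when libraries were centred per chromosome.

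Mmp9, gelatinase B, showed the largest rise of the 4 matrix metalloproteases on the log2 scale. It stood at 8.42, 8.93, 8.23 and 8.58 FPKM in wild type and at 17.8, 17.2 and 17.2 FPKM with overexpression. Each overexpressing library lay well above each wild-type library, and the log2 fold change was 0.95 (SE 0.05, adjusted p = 1.35e-07), a ratio of means of 2.04. Mmp14, the membrane-type collagenase, was at 87.0, 89.9, 82.9 and 85.4 FPKM in wild type and at 127, 117 and 121 FPKM with overexpression. It rose by 0.49 on the log2 scale (SE 0.04, adjusted p = 5.63e-06), the largest gain in FPKM among the proteases.

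Mmp3, stromelysin 1, rose from 1.19 ± 0.107 to 2.09 ± 0.164 FPKM (log2 fold change 0.49, SE 0.08, adjusted p = 4.59e-04). Mmp2, gelatinase A, was the protease that did not pass. It measured 10.2 ± 0.605 FPKM in wild type and 9.22 ± 0.715 FPKM with overexpression, and its log2 fold change of -0.14 (SE 0.06) had an adjusted p of 0.106, against 0.0462 when libraries were centred per chromosome and up to 0.376 with single libraries left out. The gelatinases Mmp2 and Mmp9 thus had values on opposite sides of wild type, though only the rise of Mmp9 passed.

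Adam19, meltrin beta, a sheddase of neuregulins, showed the largest difference of the 10 genes. Its wild-type libraries read 2.11, 1.69, 1.92 and 1.66 FPKM, and its overexpressing libraries 19.1, 19.99 and 20.003 FPKM. All 3 overexpressing libraries lay within 1 FPKM of each other and far above wild type, with a ratio of means of 10.7 and a log2 fold change of 2.87 (SE 0.07). Adam10, the sheddase of Notch receptors and of many adhesion molecules, rose more modestly, from 24.1 ± 1.55 to 28.5 ± 0.680 FPKM (log2 fold change 0.24, SE 0.05, adjusted p = 0.00327).

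Most markers listed for fibroblasts were also higher in the overexpressing MC38 libraries. Their summed level ran from 82.4 to 87.8 FPKM in wild type and from 386 to 394 FPKM with overexpression, most of it the proteoglycan decorin (Dcn), which rose from 65.6 to 320 FPKM, and Pdgfra, which rose from 17.6 to 66.1 FPKM. Lum, at 0.219 and 2.19 FPKM, and Pdgfrb, at 0.424 and 1.88 FPKM, met the expression filter through the overexpressing libraries alone. The fibrillar collagen gene Col1a1 was not tested, at 0.0264 to 0.0827 FPKM in wild type and 0.126 to 0.211 FPKM with overexpression, without overlap. Col1a2, also untested, overlapped, at 0.287 to 0.478 FPKM in wild type and 0.403 to 0.621 FPKM with overexpression. Of the intestinal epithelial list (6.68 to 8.86 and 8.96 to 10.8 FPKM summed), Krt8 rose from 3.22 to 9.45 FPKM and Krt18 fell from 3.23 to 0.0607 FPKM, while Epcam was listed at 0 in all overexpressing libraries. Endothelial markers summed to 4.305 to 5.71 and 2.89 to 3.63 FPKM, nearly all Egfl7, which fell from 4.79 to 3.15 FPKM. Pecam1 (0.0440 and 0.153 FPKM) and Cdh5 (0.0110 and 0.0587 FPKM) were untested and higher without overlap, and Kdr overlapped. Melanocyte markers summed to 1.30 to 2.11 and 0.934 to 1.44 FPKM. Leukocyte markers summed to 2.24 to 3.04 FPKM in wild type and 3.64 to 4.38 FPKM with overexpression, most of it Cd68, with the pan-leukocyte Ptprc at 0.00293 and 0.0104 FPKM and Cd3e at 0. The part of these shifts in the metalloprotease differences was not tested.

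The second comparison set B16-F10 cells edited at Ssbp4 against wild-type B16-F10. Timp1 and Timp3 were higher in all knockout libraries, Timp2, Mmp14 and Reck also lay above wild type without overlap, and Adam10, Adam19 and Mmp2 overlapped. Leaving out Adam19, Timp1 and Timp3, 5 of the other 7 genes were fitted. Of these 0 passed in limma, where 2.23% of all genes passed in this line (1.33% higher and 0.899% lower). Timp2 and Mmp14 had an unadjusted limma p under 0.05. The share of all genes under that looser threshold was not counted, so it cannot be set against the 2.23%. Among these 5 genes the groups did not overlap for Timp2, Mmp14 and Reck, all higher. Over all tested genes the share without overlap was 13.9% (8.53% higher and 5.32% lower). Nothing is read from these counts either, since the results were known when the genes were put forward. The share of higher genes among those that passed was 59.7% but 73.1% after scaling every library to a common total, 42.9% after median-of-ratios scaling and 36.9% after centring per chromosome. The medians of all tested genes and of the 8 fitted of the 10 genes were 0.02 and 0.25. The 8 include Timp1, Timp3 and Adam19, which were chosen on these values, so their median is no test. The other 5 fitted genes ran from -0.22 (Mmp2) to 0.36 (Timp2), with Reck in the middle at 0.09.

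Timp1 measured 9.80, 8.77, 6.40 and 6.55 FPKM in wild-type libraries 1 to 4 and 13.2, 12.7, 13.3 and 11.6 FPKM in knockout libraries 1 to 4. Wild-type libraries 1 and 2 lay above 3 and 4, and the lowest knockout library was still above the highest wild-type library. The ratio of means was 1.61 and the log2 fold change 0.64 (SE 0.12), from 0.56 without wild-type library 3 to 0.74 without wild-type library 1. Against wild-type libraries 1 and 2 alone it was 0.41, and against libraries 3 and 4 alone 0.87. Timp1 lies within the span of Syn1, which did not exceed 0.0686 FPKM in any B16-F10 library.

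Timp3 measured 3.89, 3.87, 4.92 and 4.27 FPKM in wild type and 7.96, 8.07, 8.71 and 5.79 FPKM in knockout. Knockout library 4 was the lowest of its group and nearest to wild type. The ratio of means was 1.80 and the log2 fold change 0.71 (SE 0.11), which was 0.82 without knockout library 4 and 0.65 without knockout library 3. Against wild-type libraries 1 and 2 alone it was 0.81, and against 3 and 4 alone 0.61. Its host gene Syn3 lay at 0.297 to 0.841 FPKM in wild type and 0.471 to 0.718 FPKM in knockout, with overlap.

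Timp2, the most abundant inhibitor in this line too, read 83.6, 81.5, 68.1 and 67.7 FPKM in wild type and 95.4, 101, 99.1 and 90.1 FPKM in knockout. Here too wild-type libraries 1 and 2 were the nearer to knockout. Its log2 fold change of 0.36 (SE 0.08) had an adjusted p of 0.0504, just outside the threshold, against 0.0405 with scaling to a common total, 0.02003 with library weights, 0.0475 without knockout library 4 and up to 0.166 with other libraries left out. It was 0.22 against wild-type libraries 1 and 2 alone and 0.50 against 3 and 4 alone. Reck measured 2.99 ± 0.144 FPKM in wild type and 3.24 ± 0.186 FPKM in knockout (SD, n = 4 and 4), which is 0.09 on the log2 scale (SE 0.06, adjusted p = 0.456). Its highest wild-type library, at 3.07 FPKM, and its lowest knockout library, at 3.08 FPKM, nearly touched.

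Mmp14 was at 88.2, 91.1, 82.8 and 78.5 FPKM in wild type and at 106, 99.8, 100.1 and 95.5 FPKM in knockout. All knockout libraries lay above wild type, yet the log2 fold change of 0.24 (SE 0.06) did not pass (adjusted p = 0.0629; 0.0322 with library weights). It was 0.16 against wild-type libraries 1 and 2 and 0.31 against 3 and 4. Mmp14 lies on chromosome 14, and when each library was centred per chromosome its log2 fold change was 0.09 (adjusted p = 0.442). Mmp2 had 1.40 ± 0.233 FPKM in wild type and 1.06 ± 0.197 FPKM in knockout, with overlap (log2 fold change -0.22, SE 0.10, adjusted p = 0.243).

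Adam10 measured 31.5 ± 2.40 FPKM in wild type and 30.6 ± 1.56 FPKM in knockout, which is -0.04 on the log2 scale (SE 0.06, adjusted p = 0.769) and 0.00045 without wild-type library 3. Adam19 read 1.11, 0.984, 1.17 and 1.19 FPKM in wild type and 1.76, 1.58, 1.79 and 1.10 FPKM in knockout. Knockout libraries 1 to 3 were above wild type and library 4 was inside its range, so the groups overlapped, with a log2 fold change of 0.27 (SE 0.10) that was 0.36 without knockout library 4. The melanocyte markers summed to 10982 to 14075 FPKM in wild type and 13645 to 14154 FPKM in knockout, and 0 of the 7 passed. Fibroblast markers summed to 4.90 to 6.38 FPKM and 6.42 to 9.29 FPKM, with Dcn and Lum listed at 0 in all knockout libraries. Pdgfrb was the 1 of 2 tested markers of that list that rose, from 1.76 to 3.25 FPKM (adjusted p = 0.00869). Leukocyte markers summed to 1.86 to 3.13 and 2.34 to 4.04 FPKM with Ptprc and Cd3e at 0, endothelial markers to 11.3 to 16.02 and 15.7 to 17.5 FPKM, nearly all Egfl7, and intestinal markers to 0.298 to 0.534 and 0.364 to 0.489 FPKM. The part of these levels in the TIMP values was not tested.

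**Figure D2:**
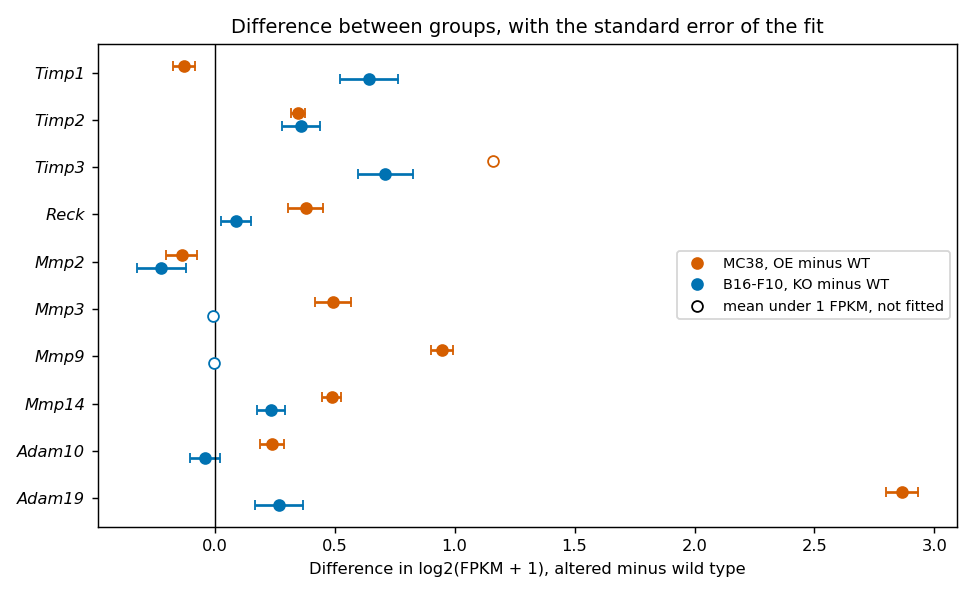
Difference in mean log2(FPKM + 1) between altered and wild-type cells (horizontal axis) for each gene in MC38 (orange) and B16-F10 (blue); bars are the standard error of the limma fit, and open circles are genes below the expression filter, shown without error. Timp2 sat at 0.35 and 0.36 in the lines, while Timp1 sat at -0.13 and 0.64.

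**Figure D3:**
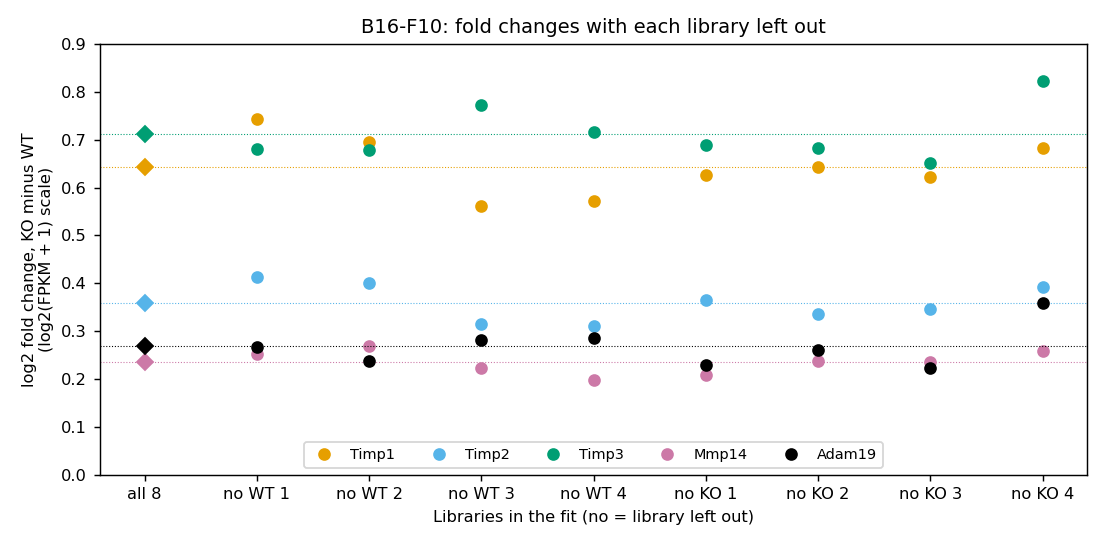
Log2 fold change in B16-F10 (vertical axis, log2(FPKM + 1) scale) of 5 genes in the fit of all 8 libraries (diamonds, dotted lines) and with each library left out in turn (circles). Timp3 rose to 0.82 without knockout library 4, and Timp1 ranged from 0.56 to 0.74.

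Side by side, overexpression in MC38 and knockout in B16-F10 had values of the same sign for some of these genes and not for others. Timp2 had log2 fold changes of 0.35 and 0.36, Mmp14 of 0.49 and 0.24, Adam19 of 2.87 and 0.27, and Timp3 differences of 1.16 and 0.71, in MC38 and B16-F10 in turn. Reck stood at 0.38 and 0.09 and Mmp2 at -0.14 and -0.22. Timp1 had opposite signs, -0.13 and 0.64. Adam10 stood at 0.24 in MC38 and at -0.04 (SE 0.06) in B16-F10, where it was 0.00045 without wild-type library 3, so its sign there was not settled. In B16-F10 the changes of Timp2, Mmp14, Reck, Mmp2 and Adam10 did not pass, nor did that of Mmp2 in MC38. Mmp3 and Mmp9, at 0.49 and 0.95 in MC38, were at or near 0 FPKM in both B16-F10 groups. The comparisons share no library, but they differ in line, in vector and in the direction of the Ssbp4 change, and the difference between them was not tested.

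The summed FPKM of the 3 TIMPs was set against that of the 4 MMPs in each library, as levels per gene length. In MC38 the TIMP sum went from 343 ± 3.85 to 413 ± 4.35 FPKM and the MMP sum from 106 ± 3.53 to 150 ± 4.38 FPKM (SD, n = 4 and 3). The ratio was 3.18, 3.12, 3.36 and 3.27 in wild type and 2.64, 2.86 and 2.77 with overexpression, lower in every overexpressing library. In B16-F10 the TIMP sum was 87.3 ± 9.81 FPKM in wild type and 117 ± 6.68 FPKM in knockout, and the MMP sum 86.6 ± 5.58 and 101 ± 4.36 FPKM. There the ratio was 1.08, 1.02, 0.945 and 0.980 in wild type and 1.09, 1.21, 1.19 and 1.11 in knockout, higher in every knockout library but separated by only 1.083 against 1.088 at the nearest pair. By size these sums rest mostly on a pair of genes. Timp2 made up 78.2 to 80.1% of the TIMP sum in wild-type MC38 and 85.7 to 86.6% in wild-type B16-F10. Mmp14 made up 80.7 to 81.8% and 98.0 to 98.7% of the MMP sum. The TIMP sum also holds Timp1 and Timp3, which were chosen on these values, so the ratios only describe them. With Timp2 left out, the mean B16-F10 ratio was 0.140 in wild type and 0.200 in knockout. The sums measure RNA, and no test was made on them.

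**Figure D4:**
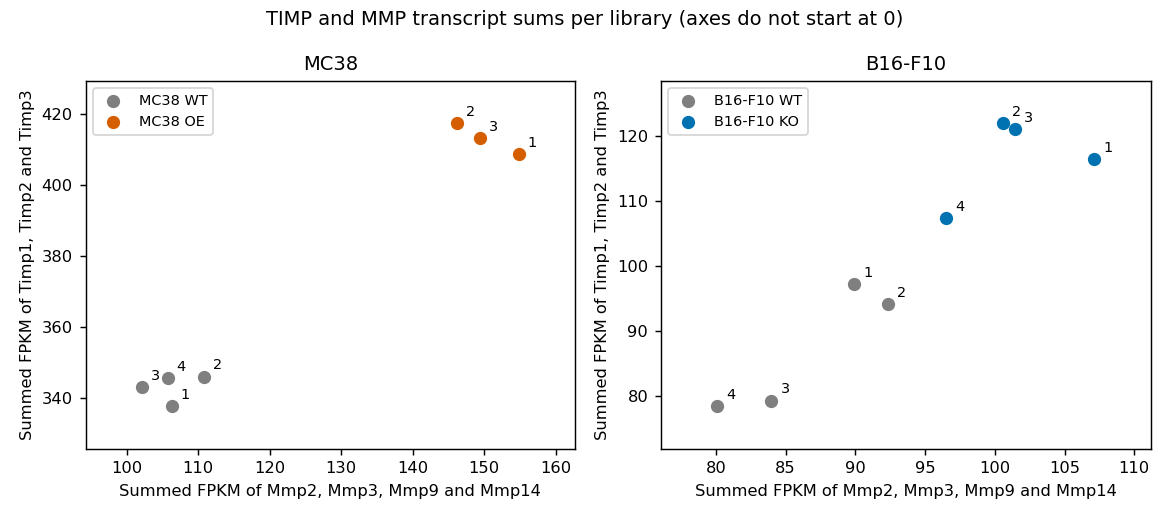
Summed FPKM of Timp1, Timp2 and Timp3 (vertical axis) against summed FPKM of Mmp2, Mmp3, Mmp9 and Mmp14 (horizontal axis) in each library, numbered by replicate, for MC38 (left) and B16-F10 (right); the axes do not start at 0. Overexpressing MC38 libraries lay at 409 to 417 FPKM of TIMP and 146 to 155 FPKM of MMP, against 338 to 346 and 102 to 111 FPKM in wild type.

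Genes that work with these proteases were taken from 8 lists of 120 genes. In MC38, 50 of them were tested, of which 21 rose and 12 fell, with a median log2 fold change of 0.12 against -0.01 over all tested genes. Of the 21, Cx3cl1, Notch1 and Mme met the expression filter only through the overexpressing libraries. In B16-F10, 47 were tested, of which 1 rose and 2 fell, with a median of 0.06 against 0.02 over all tested genes. The background shares of genes that passed were 47.5% in MC38 (23.9% higher and 23.6% lower) and 2.23% in B16-F10 (1.33% higher and 0.899% lower). The counts per list below are to be set beside these shares, and nothing is read from them.

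Among the other MMPs only 2 of 19 were tested in MC38, and they moved in opposite directions. The membrane-type Mmp16 rose from 6.12 ± 0.324 to 8.30 ± 0.309 FPKM (log2 fold change 0.39, adjusted p = 3.35e-04), and Mmp11, stromelysin 3, fell from 14.02 ± 0.915 to 11.3 ± 0.588 FPKM (-0.28, adjusted p = 0.00309). Of 4 other ADAMs tested, 3 rose and 0 fell, namely Adam8 (log2 fold change 0.37), the TNF-releasing enzyme Adam17 (0.23) and Adam9 (0.19). Adam17 went from 50.3 ± 2.15 to 59.2 ± 2.03 FPKM, so its level was above that of Adam10 in both groups.

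Partners of the sheddases had 3 of 7 tested members higher and 0 lower in MC38, where 47.5% of all tested genes passed (23.9% higher and 23.6% lower). Tspan5, a tetraspanin that escorts Adam10 to the cell surface, rose from 15.6 ± 0.531 to 29.5 ± 1.31 FPKM, which is 0.87 on the log2 scale (SE 0.05, adjusted p = 2.17e-07). Its relative Tspan14, from the same tetraspanin group, rose by 0.34, and Rhbdf2, the inactive rhomboid that carries Adam17, by 0.33. Of 19 tested substrates shed by Adam10 or Adam17, 8 rose and 7 fell. Among the 8, Cx3cl1 and Notch1 (0.914 and 1.40 FPKM) averaged under 1 FPKM in wild type. They met the expression filter through the overexpressing libraries, so they could be tested only as risers. The interleukin-6 receptor Il6ra rose by 0.65, the membrane chemokine Cx3cl1 by 0.65, from 0.796 to 1.82 FPKM, and Tnfrsf1b by 0.43. The adhesion molecule Alcam fell from 19.1 to 10.7 FPKM (-0.78), the growth factor amphiregulin (Areg) from 5.75 to 3.17 FPKM (-0.69) and App from 42.9 to 30.7 FPKM (-0.47). With Cx3cl1 left out, the highest limma adjusted p among these named substrates was 3.47e-04, for Tnfrsf1b.

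The list of activating proteases and the plasminogen system had 1 of 5 tested genes higher and 2 lower in MC38. Tissue plasminogen activator, Plat, rose from 3.52 to 6.38 FPKM (log2 fold change 0.71), whereas the urokinase receptor Plaur fell from 68.8 to 48.2 FPKM (-0.50). Of 6 tested genes that regulate or clear metalloproteases, 2 rose, the endocytic receptor Lrp1 (0.49; adjusted p = 0.0506 with no filter) and caveolin Cav1 (0.42), and 2 fell, the tetraspanins Cd151 (-0.36) and Cd63 (-0.14), the latter a Timp1 receptor. Cd63 did not pass when libraries were centred per chromosome (-0.04, adjusted p = 0.362). The ADAMTS proteases and ADAMTS-like proteins had 2 of 4 tested members higher, Adamtsl4 (0.34), which has no protease domain, and Adamts1 (0.14). Adamts1 did not pass without wild-type library 3 or 4 (adjusted p = 0.0715 and 0.0667) or without overexpressing library 1, 2 or 3 (0.0924, 0.0567 and 0.0692). Among 3 other tested membrane or secreted metalloproteases the 1 that passed was neprilysin, Mme, which rose from 0.921 to 2.86 FPKM (1.01, adjusted p = 5.54e-06). Mme and Cx3cl1 averaged under 1 FPKM in wild type and met the expression filter through the overexpressing libraries.

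In B16-F10 the 3 related genes that passed were L1cam, Cav1 and Adam12. L1cam, an adhesion molecule that Adam10 sheds, rose from 2.73 ± 0.320 to 7.18 ± 0.999 FPKM (log2 fold change 1.13, SE 0.10, adjusted p = 8.84e-04) and passed whichever library was left out. Cav1 fell from 5.24 ± 0.704 to 2.81 ± 0.490 FPKM (-0.71, adjusted p = 0.0224), opposite to its rise in MC38, but did not pass without wild-type library 3 or 4 (adjusted p = 0.0538 and 0.0640) or knockout library 1, 2 or 3 (0.0935, 0.0834 and 0.0859), nor with no filter (0.0595). Adam12, meltrin alpha, fell from 12.0 ± 0.677 to 9.55 ± 0.486 FPKM (-0.30, adjusted p = 0.0391) and did not pass without wild-type library 1, 2, 3 or 4 (0.0675, 0.0620, 0.0730 and 0.0688) or knockout library 1, 2 or 3 (0.102, 0.118 and 0.141), nor with no filter (0.0655). In the remaining lists 0 genes passed, and their most abundant members overlapped between groups except Bmp1. Furin, the convertase that activates Mmp14 and the ADAMs, read 13.6 and 14.04 FPKM, the tetraspanin Tspan10 read 291 and 298 FPKM (log2 fold change 0.06, but -0.23 against wild-type libraries 1 and 2 and 0.35 against 3 and 4), Adamts1 read 28.7 and 32.7 FPKM, Mmp15 read 1.21 and 1.18 FPKM, and Bmp1 read 3.79 and 4.70 FPKM (adjusted p = 0.0986).

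**Figure D5:**
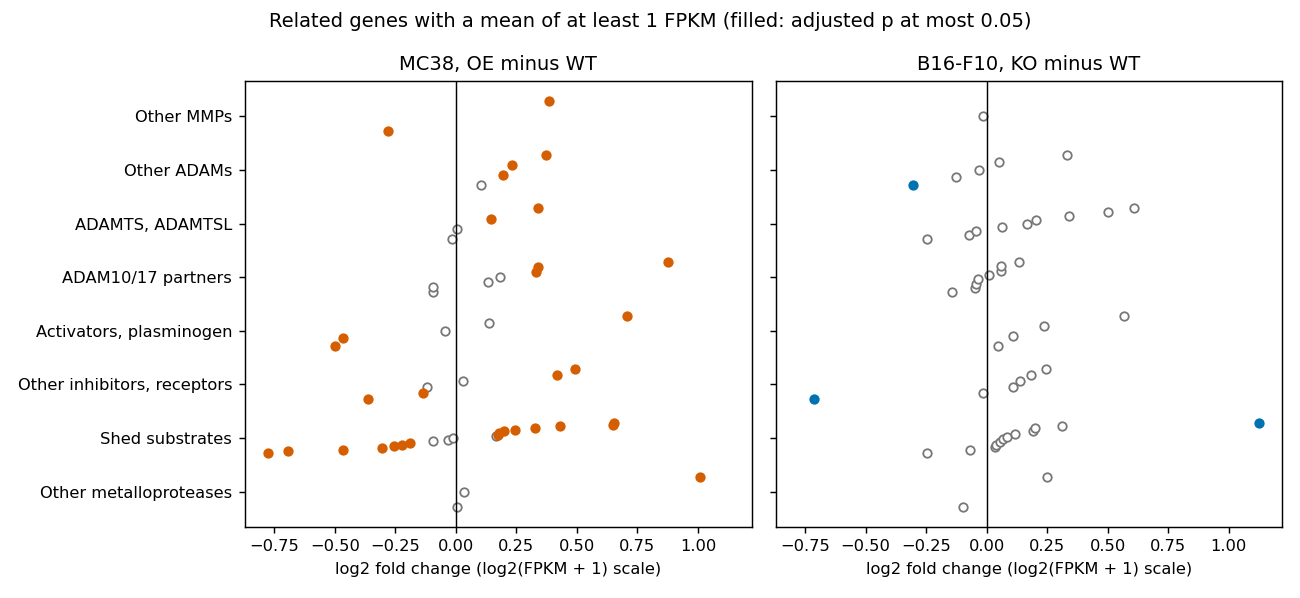
Log2 fold change (horizontal axes, log2(FPKM + 1) scale) of every related gene with a mean of at least 1 FPKM, by list (rows), in MC38 (left) and B16-F10 (right); filled points passed an adjusted p of 0.05. In MC38 33 of 50 points are filled and in B16-F10 3 of 47.

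The genes whose profiles lay nearest to Adam19, Timp1 and Timp3 were picked by the root mean square difference over the 15 libraries, each taken as log2(FPKM + 1) minus the wild-type mean of its line, among 9306 genes. Nearest to Adam19 were the glutathione transferase Gsta2 (0.16), the lysophospholipase Enpp2 (0.27) and Mgst3 (0.30), where the median gene lay at 1.30. Genes picked as nearest lie below the median by construction. In B16-F10 Enpp2 and Mgst3 differed by -0.15 and -0.11 on the log2 scale, opposite in sign to Adam19 at 0.27. Gsta2 went from 0.975 to 11.6 FPKM in MC38 and from 9.29 to 11.7 FPKM in B16-F10. Nearest to Timp1 were the homeobox gene Pknox2 (0.11), the receptor kinase Mertk (0.11) and Ptms (0.12), with a median of 0.38. Nearest to Timp3 were the PDGF receptor Pdgfrb (0.13), the mitochondrial transferase Cpt1a (0.20) and Gxylt2 (0.23), with a median of 0.65. Pdgfrb went from 0.424 to 1.88 FPKM in MC38.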

How the data were processed

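FPKM per gene symbol was computed by the authors and deposited as 1 table per line, per the file headers and the labels; the submitters' processing notes name GRCm39 and DESeq2 without versions, while for aligner, counter and gene annotation the entry is: not given in the sources used here. Each of the 15 columns was matched to its sample by library name, with 0 left over. In R 4.3.3, limma 3.58.1 (mean-variance trend) was run on log2(FPKM + 1) for each line alone, on genes with a mean of at least 1 FPKM (10748 in MC38 and 10902 in B16-F10), with Benjamini-Hochberg adjustment over all of them and a threshold of 0.05. The fit was tested on simulated data with independent noise in each library. That simulation does not cover libraries that lie together in pairs, as in wild-type B16-F10. Depth came from low FPKM values of genes with a single transcript in GENCODE M21 (GRCm38, used for lengths alone), of which 84.7 to 88.4% lay within 0.1 of a whole fragment, too few to recover counts. Library pairs within a group had a chi-square of 5.83 to 31.4 per degree of freedom on fragments so estimated, where sampling alone gives about 1, and each counted as a sample. The genes, lists and tests were chosen with earlier results of these data known. Named related genes were, per list and line, up to 3 with the highest and up to 3 with the lowest fold change among those that passed, had non-overlapping groups and reached 1 FPKM in the higher group, or the most abundant tested gene. A gene that this rule names is not reported here. The 3 genes most like Adam19, Timp1 and Timp3 leave out predicted names. Alternatives were other pseudocounts, filters, scalings, variance fits, library weights, a replicate block, centring per chromosome, each library left out and, added after seeing the data, wild-type B16-F10 libraries 1 and 2 or 3 and 4 alone. Figures were drawn with matplotlib 3.10.9.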

Additional observations from a re-analysis of the deposited data

Results flagged for a closer look

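Reck in wild-type B16-F10 library 2, at 2.77 FPKM, lay apart from the other 3 wild-type libraries at 3.05 to 3.07 FPKM, a gap of 0.938 of the group's range and beyond Dixon's critical value for 4 samples. Mmp3 in wild-type B16-F10 library 3 was listed at 0.0136 FPKM while the other 3 were listed at 0. With 3 equal values Dixon's ratio is 1 whatever the last value, so the zeros fixed this mark. Of 29 groups of 4 tested among the 10 genes 2 stood out. Chance alone marks about 1 in 20 where values are continuous, a rate that does not apply to groups mostly at 0.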

How the results depend on the processing

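In MC38 the number of genes that passed (5107) and of the 10 genes that passed (8) stayed within 1.5 times of these counts in all alternatives: 4307 to 5109 and 7 to 8 with a library left out, and 3917 and 7 with the replicate block. In B16-F10 the 243 genes that passed became 140 with a filter of 0.1 FPKM, 73 with no filter and 776 with library weights. They became 149 with centring per chromosome and 23 to 414 with a library left out. The 2 of the 10 genes that passed were the chosen Timp1 and Timp3, so their count is no test. It became 0 with no filter, 4 with library weights, 1 with centring per chromosome and 0 to 4 with a library left out. Beyond the chosen genes, Timp2 passed with library weights, with scaling to a common total and without knockout library 4. Mmp14 passed with library weights. The number was 93, 119, 44 and 41 genes without wild-type libraries 1 to 4 and 27, 23, 26 and 414 without knockout libraries 1 to 4. With the replicate number as a block, 12 genes and 0 of the 10 genes passed in B16-F10. Deviations of same-numbered libraries from their group means correlated at -0.298 to 0.165 in B16-F10 and -0.288 to -0.0664 in MC38. Such deviations sum to 0 within a group, so low or negative correlations cannot show whether the numbers pair the samples. Against wild-type libraries 1 and 2 alone 1349 genes passed and against 3 and 4 alone 2805, with 3 and 4 of the 10 genes; these pairs were picked for lying together after seeing the data, which narrows the spread, and Tspan10 turned from 0.06 to -0.23 with the first pair. The counts over the 10 genes include Adam19, Timp1 and Timp3, which were chosen on these values, and so describe them without testing them. No fold change of a named gene that passed with all libraries turned its direction in any alternative. The cause of these moves was not tested. Values below about 0.1 FPKM rest on few fragments at these depths.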
